A study of Mus musculus with 10 samples.

Results

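Ern1, Atf6, Atf4, Ddit3, Calr, Canx, Dnajb9, Dnajc3, Derl3 and Edem1 are genes of the unfolded protein response, and were chosen by name as 10 of the 20617 genes in a bulk RNA-seq table of CD3+ T cells from the spleen. The table holds 10 libraries, 5 from PBS-treated (replicates 1 to 5) and 5 from OVA-treated (replicates 6 to 10) Nf1OPG mice. All of these mice were Nf1 flox/mut; GFAP-Cre on a C57BL/6 background. They therefore carry a germline Nf1 mutation in every cell, T cells included, while GFAP-Cre removes the remaining Nf1 allele in neuroglial progenitors, where optic glioma arises. OVA is chicken ovalbumin, given to model allergic asthma. It was injected into the peritoneum as 0.5 mL at 16 μg/mL in aluminum hydroxide (alum, 2 mg/mL), each week for 2 weeks, and then given into the nose under anesthesia, whereas the control mice received PBS. The mice were treated when they were 4 to 6 weeks old, and the age at which these spleens were taken was not given in the sources used here. Nor was it given whether each library is a single mouse, so that p-values measure the spread between these libraries. The labels call the cells CD3+, while the methods of the study describe isolation kits for CD4+ and CD8+ cells.

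Proteins that enter the endoplasmic reticulum (ER) are folded there by chaperones, and an excess of unfolded protein is sensed by IRE1 (encoded by Ern1), ATF6 and PERK (encoded by Eif2ak3) in the ER membrane. IRE1 splices the mRNA of the transcription factor XBP1, ATF6 is cut in the Golgi to release a transcription factor, and PERK phosphorylates eIF2alpha, which slows translation while favoring that of ATF4. These factors raise chaperones, disulfide isomerases and the machinery of ER-associated degradation (ERAD), which sends misfolded proteins to the proteasome. Cells that secrete much protein, such as plasma cells, depend on this response, and T cells use parts of it when they are activated. IRE1 splicing, ATF6 cleavage and eIF2alpha phosphorylation are not measured by gene counts, so that the values below are RNA levels only.

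None of the 10 genes passed the test of OVA against PBS across all genes. In limma, 0 of 10 passed an adjusted p of 0.05, 0 of 10 had an unadjusted p under 0.05, and the groups overlapped for each of them. DESeq2 and edgeR, run on reads recovered from the values, called 0 of 10 as well. Across the 20249 genes tested, 0.00494% were called by limma (1 gene), 9.77% had an unadjusted p under 0.05, and DESeq2 called 0.894% of the 18678 genes to which it gave an adjusted p. Groups that did not overlap, with OVA lower, made up 0.356% of the genes tested. On average 7 of the 10 were lower with OVA (Dnajc3, Atf4, Dnajb9, Calr, Ddit3, Derl3 and Canx) and 3 were higher (Ern1, Edem1 and Atf6), but Canx turned to higher with every library at the same total and with quantile normalization. The share of all tested genes that were lower was 45.5%, and 49.98% among the 14867 genes whose mean was 10 normalized counts or more. The median log2 fold change of the 10 genes was -0.22, against 0.04 over all genes tested and 0.0001 among those whose mean was 10 normalized counts or more.

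Libraries held between 6835696 and 29915782 recovered reads, the fewest in PBS replicate 3. A read was there worth 2.77 normalized counts, and between 0.626 and 1.20 in the other libraries. The T cell label was checked with 8 T cell markers, the lowest of which had 1409.6 normalized counts in any library. Their summed level was 63691 to 116071 with PBS and 73677 to 98756 with OVA. RNA of other cells was present as well: the plasma cell gene Jchain reached 86297 normalized counts, whereas the 5 stromal markers stayed at or under 76.9. Of the T cell markers 4 were lower and 4 higher with OVA (median log2 fold change -0.01), and of 6 macrophage markers 4 were higher (median 0.48). All 5 B cell and all 5 stromal markers were higher on average with OVA, with median log2 fold changes of 1.13 and 2.16, and 0 of the markers of these 4 cell types passed the adjusted threshold in limma or DESeq2. The unadjusted p in limma was under 0.05 for 5 of 5 stromal, 2 of 5 B cell, 1 of 6 macrophage and 0 of 8 T cell markers. The groups did not overlap, with OVA higher, for 2 stromal markers (Pdgfrb and Serping1), and the share of all genes in this direction was not counted. Serping1 was near 0 with PBS, at 0 to 3.23 normalized counts, and the PBS median of Col3a1 was 0. The summed B cell level was 6710 in OVA replicate 6 and at most 2495.5 in any other library. In bulk RNA, fewer cells of a type and less RNA per cell cannot be told apart.

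The gene names of this table stand in alphabetical order and do not keep step with the values, which lie some rows above the name they belong to. Values were taken 3 rows above the name for Atf4, Atf6, Calr and Canx, 5 rows above for Ddit3, Derl3, Dnajb9 and Dnajc3, 6 rows above for Edem1 and 7 rows above for Ern1. An alignment of the names with the mean of each row, which used no treatment groups, gave the same most probable distance for all 10 genes. Its probability was over 0.9 for 9 of them (0.942 for Ern1, 0.990 for Ddit3 and at least 0.999 for the other 7) and 0.872 for Edem1. For Edem1 the second candidate lay 5 rows above, with a probability of 0.123, a mean of 1091 normalized counts and a log2 fold change of -0.13, so that the direction given below for Edem1 depends on its placement. An earlier version of the alignment also gave 7 rows for Ern1, but with a probability of 0.814 and a second candidate at 0.191, whose log2 fold change was -0.06, so that the direction given for Ern1 depends on its placement too. Levels of neighboring rows are given as a description, since the alignment used these same row means and they are no separate check of it. Atf4 had a mean of 694 over the 10 libraries between Atf3 at 4.45 and Atf5 at 13.5. Calr, at 4493, stood between Calml4 at 5.88 and its pseudogene Calr-ps at 18.8, with which it could share reads. Edem1, at 584, stood between Edc4 at 794 and Edem2 at 1091, levels that do not set its row apart. Within the annotated spans, Atf6 holds the small nuclear RNA genes Gm23523 and Gm25235 (107 bases each) on its own strand. Ddit3 shares 68 bases with Mars and 15 with Gm4189 on the opposite strand, and Dnajb9 shares 14 bases with Mir5627, also opposite. Reads within Gm23523 and Gm25235 cannot be told apart by strand, and the others only if counting used it.

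Promoter windows from RefSeq (GRCm38.p6), from 250 bases before to 50 bases after the start, were matched to 9 of the 10 genes (not Atf6). They are shown for the ER stress element (ERSE), the site through which ATF6 and XBP1 are known to act. The genes were chosen by name as genes of this response, so the choice is not independent of the element. Its share among them is a description only. The element was searched on both strands as CCAAT, any 9 bases and CCACG. It was found for 4 of the 9 genes (Calr, Canx, Dnajc3 and Derl3), for 0.137% of all 27025 genes with a window, and in 0.119% of all 32851 windows. Of 27 other genes of the response with a window, 5 held it: Syvn1, Hspa5, Hsp90b1, Pdia6 and Creld2. The related ERSE-II (ATTGG, any base, CCACG) was in none of the 9 and in 0.0444% of all genes with a window. Of the 27 other genes 2 held it, Herpud1 upstream of the start and Dnajb11 downstream of it. The sequences below are written 5′ to 3′ on the strand of the gene, and capitals mark the fixed letters of the element (CGTGG and ATTGG where it lies on the opposite strand).
Calr: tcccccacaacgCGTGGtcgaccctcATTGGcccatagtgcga
Canx: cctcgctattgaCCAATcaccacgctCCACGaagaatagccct
Dnajc3: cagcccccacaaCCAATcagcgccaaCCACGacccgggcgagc
Derl3: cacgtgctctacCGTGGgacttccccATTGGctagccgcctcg
Hspa5: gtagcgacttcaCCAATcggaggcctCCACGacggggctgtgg
Herpud1: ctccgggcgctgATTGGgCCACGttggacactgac

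These stretches lie at chr8:84847063-84847105 (Calr, minus strand), chr11:50325788-50325830 (Canx, minus), chr14:118937815-118937857 (Dnajc3, plus), chr10:75893230-75893272 (Derl3, plus), chr2:34772013-34772055 (Hspa5, plus) and chr8:94386365-94386399 (Herpud1, plus), upstream of the RefSeq start in each case. The Hspa5 stretch lies within the gene as annotated in GENCODE M21, which begins at 34771970. The element began 162 bases before the start in Calr, 156 in Derl3, 145 in Canx and 105 in Dnajc3. It read with the gene in Canx and Dnajc3 and against it in Calr and Derl3. The parts of the element alone were common: CCAAT was in 41.1% of all genes with a window and CCACG in 35.5%, and each was in 8 of the 9. Among the 27 other genes of the response with a window, 18 held CCAAT and 19 held CCACG. Other motifs were in none of the 9, namely the unfolded protein response element TGACGTGG (0.676% of all windows), the amino acid response element TGATGNAAN (3.95%), the cAMP response element TGACGTCA (1.79%) and TTGCATCA (0.895%), which overlaps the amino acid element. In this order, 1, 4, 1 and 3 of the 27 other genes held them. A match is a description of letters and does not show that a factor binds there.

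**Figure D1:**
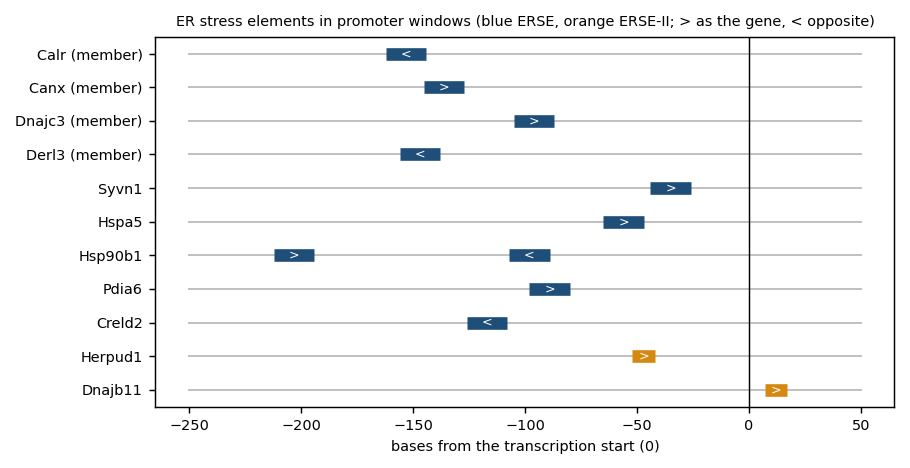
Position of the ER stress elements in the promoter windows of the genes that held one; the x axis is the distance in bases from the transcription start (0), each grey line is a window from 250 bases before to 50 after it, blue blocks are ERSE, orange blocks ERSE-II, and the arrow gives the strand. In the 4 members the element begins between 162 and 105 bases before the start.

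Levels of different genes were compared as normalized counts per kilobase of annotated exon (GENCODE M21), averaged over the 10 libraries. The lectin chaperones were the highest, Canx at 1666 and Calr at 1560 per kilobase. Atf4 (294), Dnajc3 (244) and Ddit3 (191) formed the middle, followed by Edem1 (90.5), Dnajb9 (71.4) and Derl3 (50.1). The sensors were lowest, Atf6 at 19.9 and Ern1 at 5.49. From each gene to the next in this order the ranges over libraries overlapped, except between Calr and Atf4 and between Atf6 and Ern1. The lowest Calr library, at 1331 per kilobase, was above the highest Atf4 library, at 381, and the lowest Atf6 library, at 12.8, was above the highest Ern1 library, at 10.1.

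**Figure D2:**
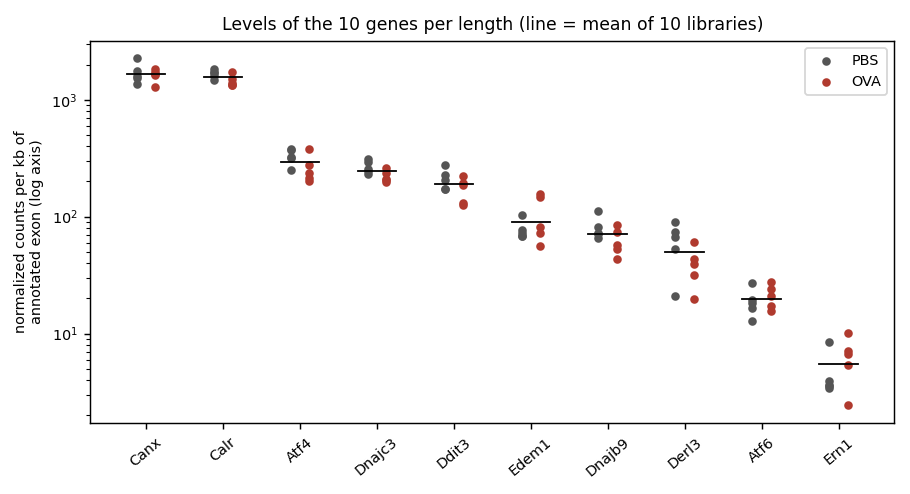
Normalized counts per kilobase of annotated exon (y axis, logarithmic) for the 10 genes (x axis, in order of their mean); each point is a library, grey PBS and red OVA, and the line is the mean of 10 libraries. Canx and Calr stand apart at the top with means of 1666 and 1560, and Ern1 is lowest with 5.49.

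Ern1 (ENSMUSG00000020715, chromosome 11, 106394650 to 106487852, minus strand, GRCm38) encodes IRE1, the sensor that splices Xbp1 mRNA. It had 30.0, 31.8, 69.2, 28.0 and 28.9 normalized counts in PBS replicates 1 to 5, and 58.5, 55.1, 19.9, 82.9 and 44.1 in OVA replicates 6 to 10. The PBS libraries other than replicate 3 lay together near 30.0, and replicate 3 was above all OVA libraries but replicate 9, while OVA replicate 8 was below every PBS library. That PBS value rests on 25 reads in the library of lowest depth, with an exact Poisson 95% interval of 44.8 to 102 normalized counts that covers counting error only. The means were 37.6 ± 17.8 with PBS and 52.1 ± 22.9 with OVA (SD, n = 5 each), a log2 fold change of 0.42 ± 0.40 (SE) with a 95% interval of -0.44 to 1.27. The adjusted p was 0.764 in limma and 0.730 in DESeq2. With single libraries left out, the log2 fold change was 0.22 without OVA replicate 9, 0.66 without PBS replicate 3 and 0.72 without OVA replicate 8.

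Atf6 (ENSMUSG00000026663, chromosome 1, 170704674 to 170867771, minus strand) encodes the sensor that becomes a transcription factor after cleavage. Its values were 178, 153, 249, 118 and 169 with PBS and 255, 158, 143, 195 and 220.3 with OVA. The groups covered nearly the same range, with PBS replicate 4 lowest and OVA replicate 6 highest. The log2 fold change was 0.17 ± 0.23 (95% interval -0.32 to 0.66), with an adjusted p of 0.839 in limma. It ranged from 0.045 without PBS replicate 4 and 0.066 without OVA replicate 6 to 0.27 without OVA replicate 8 and 0.31 without PBS replicate 3, and was 0.28 with every library at the same total and 0.37 with array weights.

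Atf4 (ENSMUSG00000042406, chromosome 15, 80255184 to 80257541, plus strand) encodes the transcription factor of the PERK arm, whose protein is set mainly by translation. It had 869, 899, 759, 743 and 589 normalized counts with PBS and 502, 657, 471, 555 and 894 with OVA. OVA replicates 6, 8 and 9 were below every PBS library, but OVA replicate 10 was almost as high as the highest PBS library. The means were 772 ± 123 and 616 ± 171, a log2 fold change of -0.35 ± 0.18 (95% interval -0.74 to 0.04). The exact two-sided permutation p was 0.119 (n = 5 each), and the adjusted p was 0.556 in limma and 0.631 in DESeq2.

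Ddit3 (ENSMUSG00000025408, chromosome 10, 127290774 to 127296288, plus strand) encodes CHOP, a transcription factor downstream of ATF4 that is linked to cell death under prolonged ER stress. The PBS libraries had 349, 471, 294, 392 and 297 normalized counts and the OVA libraries 223, 381, 321, 216 and 335. OVA replicates 6 and 9 were the lowest of all, and the other 3 OVA libraries lay within the PBS range. The log2 fold change was -0.30 ± 0.20 (95% interval -0.73 to 0.13), with an adjusted p of 0.645 in limma. It was -0.20 without PBS replicate 2 or OVA replicate 9, and -0.19 with every library at the same total.

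Calr (ENSMUSG00000003814, chromosome 8, 84841850 to 84846934, minus strand) encodes calreticulin, the soluble lectin chaperone of the ER lumen that also binds calcium. It had 4946, 5260.5, 4869, 4562 and 4223 normalized counts with PBS, and 4358, 3843, 3833, 4024 and 5008 with OVA. OVA replicates 7, 8 and 9 were below every PBS library, and replicate 10 was second only to PBS replicate 2. The means were 4772 ± 395 and 4213 ± 492, and the log2 fold change of -0.18 ± 0.12 had a 95% interval of -0.44 to 0.07. The exact permutation p was 0.0794 (n = 5 each), and the adjusted p 0.627 in limma. The difference was smaller with every library at the same total (-0.070) and with quantile normalization (-0.058).

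Canx (ENSMUSG00000020368, chromosome 11, 50293961 to 50325673, minus strand) encodes calnexin, the membrane-bound partner of calreticulin in the folding of glycoproteins. Its PBS values were 6406, 7176, 10648, 7472 and 8317, and its OVA values 8157, 6023, 7683, 8548 and 7731. PBS replicate 3 was the highest, and without it the OVA libraries spanned the remaining PBS libraries. The log2 fold change was -0.06 ± 0.15 (95% interval -0.38 to 0.26, adjusted p 0.926 in limma). It was 0.05 without PBS replicate 3 and 0.03 without OVA replicate 7, and ranged from -0.13 (without PBS replicate 1) over the libraries left out, so that no direction can be given for Canx.

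**Figure D3:**
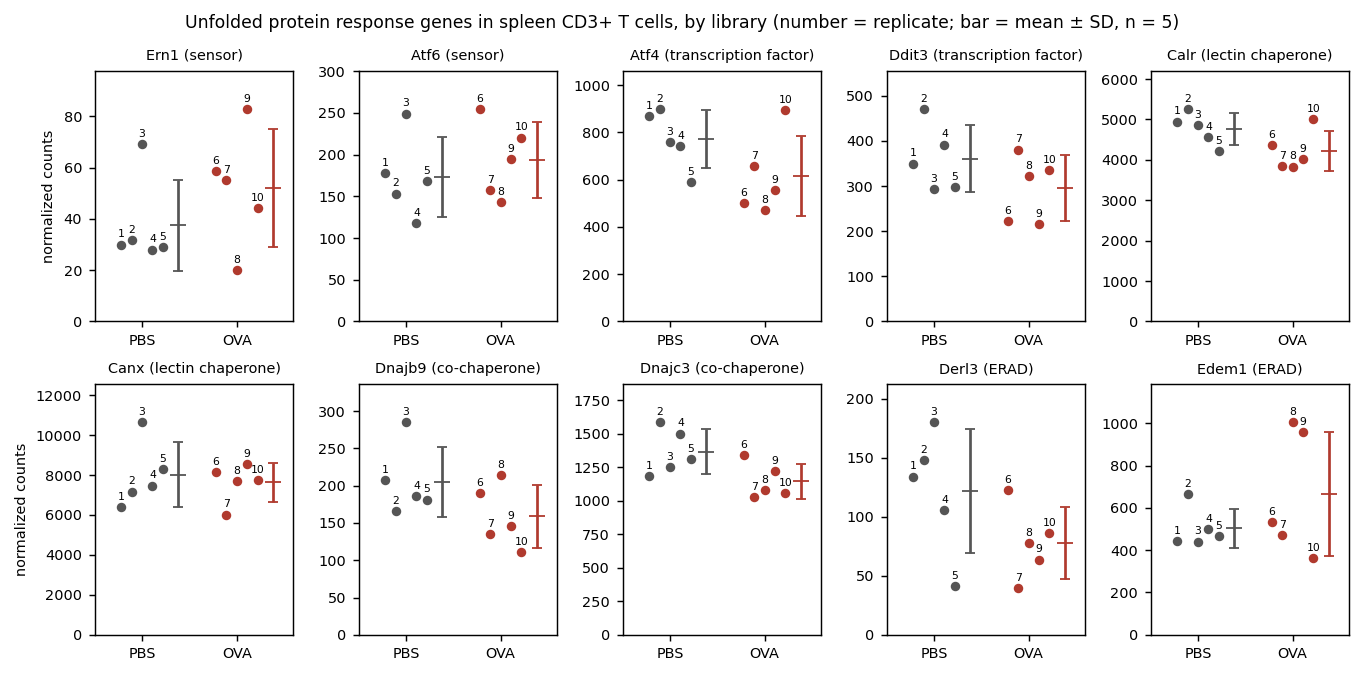
Normalized counts (y axis, from 0) of the 10 genes in each library; grey points are PBS replicates 1 to 5 and red points OVA replicates 6 to 10, numbered, with the mean ± SD of each group beside them. The groups overlap in all 10 panels, and PBS replicate 3 is the highest library for Canx, Dnajb9 and Derl3.

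Dnajc3 (ENSMUSG00000022136, chromosome 14, 118937976 to 118981697, plus strand) encodes p58IPK, a co-chaperone of BiP in the ER lumen. It had 1185, 1585, 1252, 1501 and 1309 normalized counts with PBS and 1337, 1026, 1076, 1223 and 1054 with OVA. OVA replicates 7, 8 and 10 were below every PBS library, and 4 of 5 OVA libraries were under the PBS median. With means of 1366 ± 169.8 and 1143 ± 132, its log2 fold change was -0.26 ± 0.13 (95% interval -0.53 to 0.02). Of the 10 genes it had the lowest exact permutation p, 0.0556 (n = 5 each, smallest possible 0.00794), and the lowest adjusted p, 0.538 in limma and 0.546 in DESeq2. With every library at the same total its log2 fold change was -0.14.

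Dnajb9 (ENSMUSG00000014905, chromosome 12, 44205559 to 44210326, minus strand) encodes ERdj4, a co-chaperone that is a target of XBP1 and binds IRE1. Its values were 207, 166, 285, 186 and 181 with PBS and 189.7, 135, 214, 145 and 111 with OVA. OVA replicates 7, 9 and 10 were below every PBS library, while OVA replicate 8 was second only to PBS replicate 3. The log2 fold change was -0.38 ± 0.22 (95% interval -0.85 to 0.10), with an adjusted p of 0.595 in limma.

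Derl3 (ENSMUSG00000009092, chromosome 10, 75893413 to 75895941, plus strand) encodes a derlin of the ERAD channel that is abundant in secretory cells. It had 134, 148, 180.0, 105 and 41.5 normalized counts with PBS and 122, 39.4, 77.7, 63.7 and 85.8 with OVA. Each of the 5 OVA libraries was under the PBS median, but PBS replicate 5 was nearly as low as the lowest OVA library, replicate 7. The means were 122 ± 52.3 and 77.8 ± 30.4, and the log2 fold change of -0.58 ± 0.39 was the lowest of the 10, with the wide 95% interval of -1.41 to 0.25. The adjusted p was 0.644 in limma and 0.599 in DESeq2, and the log2 fold change was -0.93 without PBS replicate 5, -0.36 without OVA replicate 7 and -0.35 with array weights.

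Edem1 (ENSMUSG00000030104, chromosome 6, 108828641 to 108859356, plus strand) encodes a protein that trims mannose from misfolded glycoproteins and so marks them for ERAD. The PBS values were 441, 664, 440.3, 499 and 467, and the OVA values 531, 470.1, 1005, 957 and 363. OVA replicates 8 and 9 were well above every PBS library, and OVA replicate 10 was below all of them. The log2 fold change was 0.31 ± 0.26 (95% interval -0.24 to 0.86), with an adjusted p of 0.726 in limma. It was 0.13 without OVA replicate 8, 0.15 without OVA replicate 9 and 0.50 without OVA replicate 10. These values hold for the row 6 above the name, whose probability was 0.872.

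The 10 genes did not share an order of libraries. PBS replicate 2 was the highest library for Atf4, Ddit3, Calr and Dnajc3, and PBS replicate 3 for Canx, Dnajb9 and Derl3. Lowest values fell in OVA replicate 7 for Canx, Dnajc3 and Derl3 and in OVA replicate 8 for Ern1, Atf4 and Calr. The mean deviation of the 10 genes from their own means (log2) was highest in PBS replicate 3 (0.32) and PBS replicate 2 (0.18), and lowest in OVA replicate 7 (-0.22) and PBS replicate 5 (-0.21). By single genes, the highest library was a PBS library for 7 of the 10 and the lowest an OVA library for 9 of the 10, while the groups overlapped for each gene. The share of all genes with such extremes was not counted, so that these counts only describe the 10.

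Of 38 other genes of the response, listed by arm, 34 could be placed on a row with a probability over 0.9. In limma 0 of the 34 passed an adjusted p of 0.05, as in DESeq2 and edgeR. On average 21 were lower and 13 higher with OVA, with a median log2 fold change of -0.11, and 17 were lower with every library at the same total. That scaling moved the median of all genes by 0.11. In limma, 3 of the 34 (8.82%) had an unadjusted p under 0.05, against 9.77% of all genes tested, and these 3 were lower with OVA (Asns, Herpud1 and Hspa5). DESeq2 gave 3 such genes as well (Herpud1, Hspa5 and Xbp1), against 9.27% of all genes, so that neither share was above that of all genes. By arm, 5 of 7 genes of the PERK and ATF4 arm were lower, as were 7 of 10 of the IRE1, XBP1 and ERAD list and 9 of 17 of the ATF6 and folding list.

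Hspa5 encodes BiP, the main ER chaperone of the HSP70 family, which also holds the sensors inactive. It had 13106, 11749, 12229.6, 10921 and 10808 normalized counts with PBS and 9897, 9549.5, 8949.8, 9994 and 10690.3 with OVA. Every OVA library was below every PBS library, by as little as 10690.3 against 10808, and groups that did not overlap in this direction made up 0.356% of all genes tested. The means were 11763 ± 954 and 9816 ± 637, and the log2 fold change was -0.26 ± 0.11. It was -0.15 with every library at the same total and -0.14 with quantile normalization. At the same total, an alternative added after seeing the data, the groups overlapped (10498.6 to 12112 with PBS and 9018 to 11738 with OVA), so that the separation depends on the scaling. The exact permutation p was 0.00794 (n = 5 each), the smallest that all assignments of the libraries can give, and the adjusted p over all genes was 0.479 in limma and 0.299 in DESeq2.

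Herpud1, which encodes an ERAD scaffold of the ER membrane, had 4458, 4686, 2390.0, 2789 and 2220.5 normalized counts with PBS and 2133, 2308, 2029.8, 1852 and 2072 with OVA. PBS replicates 1 and 2 stood far above the rest, and 4 of 5 OVA libraries were below every PBS library. Its log2 fold change was -0.60 ± 0.20, with an adjusted p of 0.325 in limma and 0.131 in DESeq2. An earlier version of the alignment gave this row a probability of 0.744. The second candidate there had 0.179 and a log2 fold change of 0.008, so that the change given for Herpud1 depends on its placement. Asns, which encodes the asparagine synthetase induced by ATF4 and was named after its values were seen, had a log2 fold change of -1.25 ± 0.50 (adjusted p 0.427 in limma). It ranged from 534 to 2623 with PBS and from 219 to 1553 with OVA.

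Xbp1, the transcription factor of the IRE1 arm, had 1078, 1752, 1731, 1241 and 722 normalized counts with PBS and 1274, 840.0, 749, 817 and 926 with OVA. The PBS group held both the 2 highest libraries and the lowest, and the log2 fold change was -0.45 ± 0.23 (adjusted p 0.534 in limma). An earlier version of the alignment gave this row a probability of 0.893. The second candidate there had 0.106 and a log2 fold change of 0.0995, so that the direction given for Xbp1 depends on its placement. Eif2ak3, which encodes PERK, ranged from 40.6 to 99.8 with PBS and from 37.6 to 73.5 with OVA, a log2 fold change of -0.18 ± 0.33. Ppp1r15a, which encodes GADD34 and directs the dephosphorylation of eIF2alpha, ranged from 462 to 804 and from 399 to 729, a log2 fold change of -0.29 ± 0.19. The chaperone genes Hsp90b1 (GRP94) and Sdf2l1 had log2 fold changes of -0.22 ± 0.16 and -0.14 ± 0.19, and overlapping groups. Leaving out single libraries moved Hsp90b1 to between -0.28 and -0.11, Sdf2l1 to between -0.32 and -0.05, and Eif2ak3 to between -0.34 and -0.02. Adjusted p-values for Eif2ak3, Ppp1r15a, Hsp90b1 and Sdf2l1 lay between 0.648 and 0.890 in limma. Trib3, an inhibitor induced by ATF4 and CHOP, could not be placed, since its most probable row had a probability of 0.636.

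**Figure D4:**
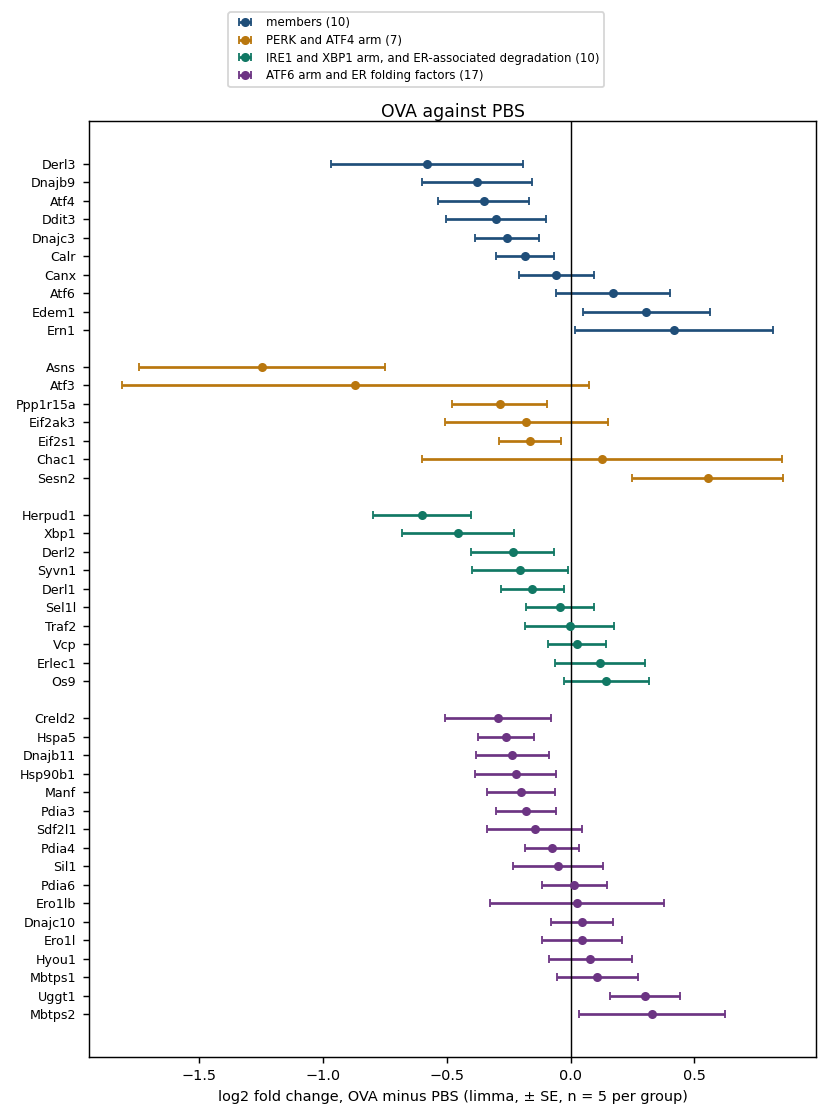
Log2 fold change of OVA minus PBS (x axis, limma, points with SE, n = 5 per group) of the 10 members and the 34 placed genes of the response, grouped by list and ordered within it. Most points lie within 0.6 of 0, and Asns, at -1.25, is the lowest.

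The plasma cell markers Jchain, Mzb1 and Sdc1 were lower on average with OVA, as were several of these genes. Whether markers and genes vary together within a group was not tested. Jchain, the joining chain of secreted antibodies, had 47121, 65064, 86297, 51090.1 and 13556 normalized counts with PBS, and 25812, 7328, 11335, 16809.5 and 18931 with OVA. These values hold for the row 19 above the name, whose probability was 0.960. An earlier version of the alignment gave that row 0.675 and a second candidate 0.318, with a mean of 35.3 and a log2 fold change of -0.22. In the row used, PBS replicates 1 to 4 were above every OVA library and PBS replicate 5 was among the low ones. The log2 fold change was -1.61 ± 0.43, with an adjusted p of 0.210 in limma and 0.00426 in DESeq2, and without PBS replicate 5, the control library that was low for Jchain, it was -2.05 with an adjusted p of 0.0118 in limma. With any of the other 9 libraries left out it was -1.82 to -1.36, with adjusted p from 0.199 to 0.419. Over all genes, limma called 135 without PBS replicate 5, against 1 with every library. Mzb1 and Sdc1, also markers of plasma cells, had log2 fold changes of -1.27 and -1.04 (adjusted p 0.345 and 0.372 in limma), and these were -1.70 and -1.40 without PBS replicate 5 (0.0414 and 0.0456). With another library left out they were -1.42 to -1.06 for Mzb1 and -1.13 to -0.79 for Sdc1, and the adjusted p was at least 0.350 and 0.394. Prdm1 and Irf4, which activated T cells also make, had 0.14 and -0.11, so that of the 5 placed plasma cell markers 4 were lower, none had a value of 0, and DESeq2 called only Jchain. The summed level of the 5 ranged from 14542 to 90041 with PBS and from 8198 to 27470 with OVA.

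The order of libraries was compared with that of Jchain as a description. For Derl3, PBS replicate 3 was the highest as for Jchain, OVA replicate 7 was the lowest for both, and PBS replicate 5 was low for both. Hspa5, Mzb1, Sdc1 and Herpud1 had the same 4 highest libraries as Jchain, PBS replicates 1 to 4, and Derl3, Xbp1, Atf4, Ddit3, Calr, Hsp90b1 and Sdf2l1 had 3 of them among their 4 highest. For Canx, Atf6, Ern1 and Edem1 this number was 1, and for Dnajb9 and Dnajc3 it was 2. The 4 highest libraries of Jchain are all PBS libraries, so that genes lower with OVA tend to share them. Of the other pathway genes only Hspa5, Herpud1, Xbp1, Hsp90b1 and Sdf2l1 were counted in this way, and the share over all genes was not counted. Eif2ak3 was higher in OVA replicates 6 (73.5) and 9 (73.3) than in PBS replicates 3 (58.2) and 4 (45.2). Ppp1r15a was higher in OVA replicate 7 (729) than in PBS replicates 3 (462) and 4 (524). The orders also differed: PBS replicate 3, highest for Jchain, ranked 8 of 10 for Ddit3. PBS replicate 5, low for Jchain, was above every OVA library for Hspa5. The genes share their libraries, and the part of plasma cell RNA in the values of Derl3, Hspa5, Xbp1 and Herpud1 was not tested.

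**Figure D5:**
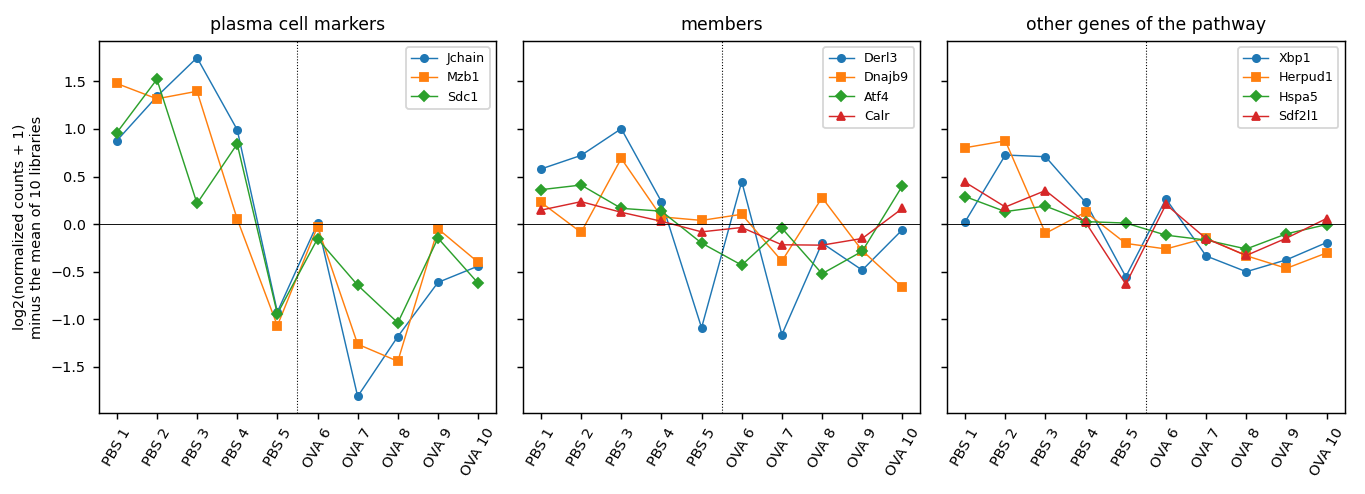
Log2(normalized counts + 1) minus the mean of the 10 libraries (y axis) for 3 plasma cell markers, 4 members and 4 other genes of the response in each library (x axis; the dotted line parts PBS from OVA, and the lines only join the points of a gene). Jchain and Derl3 are both highest in PBS replicate 3 and lowest in OVA replicate 7, and both are low in PBS replicate 5.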

How the data were processed

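Reads of spleen CD3+ T cells (PBS, n = 5; OVA, n = 5) were aligned by the authors with STAR 2.6.1d to the Ensembl release 99 assembly (mm10 per the labels) and counted per gene in Partek Flow 9.0. The authors then scaled each library by its median-ratio size factor, so that the deposited unit is a normalized count (signal). Within a library, 99.9% or more of the values were whole multiples of a step, to within 0.1, and division by the step gave the reads.

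The members and lists were chosen with earlier results of these data known. Names and values were realigned with a hidden Markov model over distances of -10 to 40 rows, from the annotation of the names (GENCODE M21) and the mean of all libraries. It was also run on simulated levels drawn from its own estimate, which cannot show that the estimate is right for the real table. The model was changed after the levels of P4hb, Os9 and Trib3 had been seen to look misplaced, so the version used is the last of 3. All 3 gave the same most probable distances for the 10 members, with 9, 8 and 9 of them over 0.9 (the second version had Ern1 at 0.814). The first would have placed P4hb at a row with a mean of 9.74 and a log2 fold change of -2.14 (adjusted p 0.331 in limma), which is left out here. Pathway and marker genes entered at a probability over 0.9.

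Rows whose mean was 1 or more were fitted with limma 3.58.1 (R 4.3.3) after log2(normalized counts + 1), using a trend of the variance and Benjamini-Hochberg adjustment over all rows. Fold changes on this scale understate changes of low genes. For single genes an exact two-sided permutation test was run over all assignments of the libraries. edgeR 4.0.16 and DESeq2 1.42.0 were run on the recovered reads. All 10 members, Hspa5, Hsp90b1, Xbp1, Herpud1, Sdf2l1, Eif2ak3, Ppp1r15a and Trib3 were named whatever their change, with any pathway gene past an adjusted p of 0.05 in limma or DESeq2. Motif matches are given for all 8 motifs searched. Of 37 promoter windows, 31 held 30 bases of a GENCODE transcript on the strand of the gene and 0 on the other. Isoforms and splicing were not analysed here.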

Additional observations from a re-analysis of the deposited data

Results flagged for a closer look

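Of 40 groups of 5 libraries examined (20 genes by 2 treatments), 2 held a library far from the others, and chance gives about 1 in 20. The Ern1 value of PBS replicate 3 (69.2 normalized counts, against 28.0 to 31.8 in the other PBS libraries) had a gap of 0.906 of the group's range to its nearest neighbor. The Edem1 value of PBS replicate 2 (664, against 440.3 to 499) had a gap of 0.737.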

How the results depend on the processing

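None of the 10 members was called under any alternative run, and between 2 and 4 of them were higher with OVA (3 as reported). Of the placed pathway genes, 0 were called and 17 to 24 were lower. The number of genes called overall was 1 as reported, 0 with a pseudocount of 0.1 or quantile normalization, 2 with array weights or edgeR, 167 with DESeq2, and 0 to 135 when each library was left out, the most without PBS replicate 5; the cause was not tested. Directions turned for Canx with every library at the same total (log2 fold change 0.056), with quantile normalization (0.066), and without PBS replicate 3 (0.051) or OVA replicate 7 (0.025; range over libraries left out -0.13 to 0.051), for Eif2ak3 with array weights (0.084), and, with the names as listed, for Ern1 (-0.46) and Derl3 (0.059), where another row is read. Under the other alternatives the directions of the members stayed as reported. With the distance re-estimated, Edem1 has no value, since its probability is under 0.9. The earlier versions of the alignment placed 34 and 27 pathway genes, of which 0 were called and 22 and 18 were lower. Alternatives for the pathway genes, Jchain, Mzb1 and Sdc1 were added after seeing the data. No paired analysis was possible because the groups share no replicate numbers. Depth limits Ern1 most, which had as few as 21 reads in a library.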
